A study of Mus musculus with 18 samples.

Results

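Cyclophilins are peptidyl-prolyl isomerases, and 10 genes of this family were followed in mouse small cell lung cancer cells: Ppia, Ppib and Ppic, then Ppid, Ppie and Ppif, and then Ppig, Ppih, Ppil1 and Ppwd1. They were taken by name, with earlier results of these data known, from a table of 25239 genes measured by RNA sequencing in 18 samples. All 10 passed the filter on low values used for testing, a level of 1 TPM (transcripts per 1000000) or more in 3 samples or more, as did 12828 genes in all. The questions were how strongly each was expressed, how each moved when p53 was restored, and whether the others moved when Ppia was targeted.

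The samples came from 3 cell lines, 4711-1, 4711-18 and 4716-11, each grown from a tumour of the Type D class, the class described as dying after p53 restoration. In every sample Rb1 and Rbl2 had been deleted by adenoviral Cre driven by the CMV promoter, and Trp53 carried a gene trap that the same Cre had switched to the silencing orientation. Each line was transduced with LentiCRISPR carrying sgBgal, a guide against a bacterial gene that serves as the control, or 1 of 2 guides against Ppia, sgPpia#3.2 in exon 3 and sgPpia#4.1 in exon 4. Each population was then treated for 72 h with vehicle (Control) or with 4-hydroxytamoxifen (4-OHT), which activates FlpO-ER expressed from Rosa26 and so removes the trap (Restored). The 6 conditions thus held 3 samples each, 1 from each line, and no Control or Restored group lacked the Rb1 and Rbl2 deletions. The populations were selected, not cloned, so cells with an intact Ppia gene can remain in them. Every Restored sample had received 4-OHT, so p53 restoration and an effect of 4-OHT itself cannot be told apart.

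Cyclophilins turn the bond before a proline between its cis and trans forms, which helps proteins fold and switches some proteins between states. Members work in different places: cyclophilin A, the product of Ppia, is abundant in the cytosol and is the main cellular receptor of cyclosporin A, while the products of Ppib and Ppic fold proteins of the secretory pathway. The product of Ppif, cyclophilin D, sits in the mitochondrial matrix and sensitises the permeability transition pore, a trigger of necrotic death. The product of Ppid is a co-chaperone of Hsp90, and those of Ppie, Ppig, Ppih, Ppil1 and Ppwd1 are nuclear proteins associated with splicing.

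The labels were checked against the treatment. Trp53 was at 5.45 to 8.41 TPM in the 9 Control samples and at 181 to 236 TPM in the 9 Restored samples, and the p53 targets Cdkn1a and Mdm2 did not overlap between the states either. Of the neuroendocrine markers, Chga, Calca and Neurod1 were each at or below 0.156 TPM in all 18 samples, Insm1 reached 3.37 TPM, and Uchl1, Syp and Nfib were at 1.21 to 2.81, 3.03 to 7.12 and 21.6 to 44.9 TPM. The epithelial markers Krt8, Krt18 and Cdh1 were at 264 to 8542 TPM, and Epcam at 0 to 6.25 TPM. The 4 epithelial markers summed to 9542 to 17735 TPM in Control and 4874 to 11681 TPM in Restored samples, ranges that overlap, and their part in the responses to restoration was not tested. The summed markers of fibroblasts and of endothelium were at most 1.11 and 1.44 TPM. The 5 leukocyte markers summed to 3.01 to 7.38 TPM in Control and 22.6 to 42.6 TPM in Restored samples. Cd68 was at 2.0 to 7.13 TPM in Control and 21.3 to 39.8 TPM in Restored samples, Lyz2 at 0.247 to 2.84 TPM and the pan-leukocyte gene Ptprc at or below 0.0814 TPM in all, and the part of Cd68 in the responses to restoration was not tested. One population stood apart, the 4711-18 cells with sgPpia#3.2. Its Control library had 369 TPM of Cdkn1a where the other 8 Control samples had 99.4 to 171 TPM, and 3145 TPM of Bsg against 851 to 1412 TPM. Its Restored library had 2404 TPM of Bsg where the other 8 Restored samples had 1189 to 1861 TPM. Results that use the Control library are given below with and without it where the call changes, and leaving out line 4711-18 removes both libraries. Values in TPM are scaled to 1000000 in each sample, and the number of reads behind them is unknown.

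Ppia dominated the family. Its mean over the 18 samples was 1681 TPM, 9.12 times that of Ppil1, the next gene, and it ranked 72 of all 25239 genes although 12 of the 18 samples carried a guide against it. TPM is scaled for transcript length, so levels of different genes can be set side by side. In the 3 sgBgal Control samples Ppia made up 74.5% ± 2.64 (SD, n = 3) of the summed TPM of the 10 genes. Ppil1, a spliceosomal cyclophilin that binds Snw1, had a mean level of 184 TPM over the 18 samples, followed by Ppib at 175, Ppid at 145 and Ppic at 122 TPM. Ppie was at 74.9 TPM, Ppig at 52.0, Ppih at 26.1 and Ppwd1 at 21.7 TPM. Ppif, the mitochondrial member, had the lowest mean over all samples, 16.9 TPM.

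The order of these means was kept in every sample at some steps and turned with state or line at others. Ppia was above Ppil1, Ppic above Ppie, and Ppig above Ppih in all 18 samples, and Ppie was above Ppig in 17 of 18. Ppih was above Ppwd1 in 9 of 9 Control samples and in 2 of 9 Restored samples. Ppid was above Ppic in 5 of 9 Control and 9 of 9 Restored samples, and in sgBgal Control cells the mean of Ppic, 168 TPM, was above that of Ppid, 162 TPM. Other neighbours turned with the line. Ppwd1 was above Ppif in 6 of 6 samples of 4711-1 and of 4716-11 and in 0 of 6 of 4711-18, and Ppib was above Ppid in 6 of 6, 6 of 6 and 1 of 6. Ppil1 was above Ppib in 6 of 6 samples of 4716-11, 4 of 6 of 4711-18 and 1 of 6 of 4711-1. Ppig varied least, between 44.1 and 63.1 TPM, and Ppia most, between 658 and 2849 TPM, a range that takes in the samples with a guide against it. Among the sgBgal samples alone, Ppih, at 13.9 to 41.5 TPM, and Ppic, at 71.9 to 187 TPM, varied more by fold than Ppia, at 1551 to 2849 TPM.

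**Figure D1:**
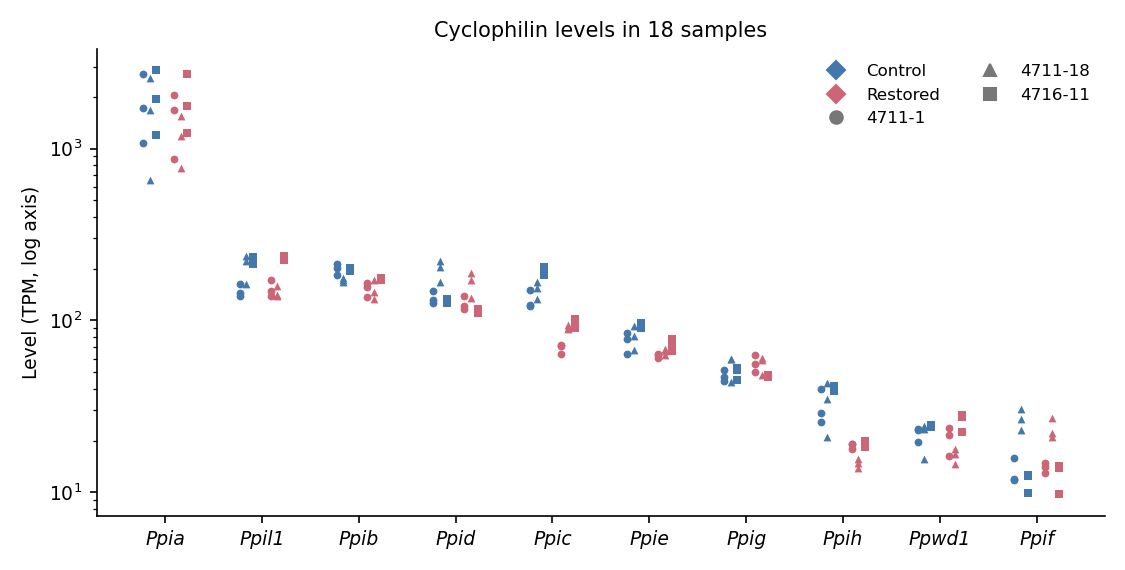
Level of each cyclophilin gene in TPM (log axis) in the 18 samples, coloured by state and shaped by cell line. Ppia, at 658 to 2849 TPM, lies above every other member, and Ppic and Ppih are the 2 genes whose Restored points all lie below their Control points.

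The gene targeted by the guides was lower in every line that received a Ppia guide. Ppia lies on chromosome 11 at 6415443 to 6419817, plus strand (GRCm38, GENCODE M21). In the transcript Ppia-202, exon 3 spans 6418226 to 6418314, 89 bases, and exon 4 spans 6419113 to 6419285, 173 bases. In Control cells of lines 4711-1, 4711-18 and 4716-11, Ppia was at 2704, 2575 and 2849 TPM with sgBgal. It was at 1073, 658 and 1207 TPM with sgPpia#3.2 and at 1713, 1684 and 1952 TPM with sgPpia#4.1. The 3 groups did not overlap, and the exon 3 guide gave the lowest level in each line. In Restored cells the sgBgal samples held 2060, 1551 and 2730 TPM, the sgPpia#3.2 samples 873, 769 and 1233 TPM, and the sgPpia#4.1 samples 1678, 1191 and 1765 TPM. There the sgPpia#3.2 samples were below all sgBgal samples, whereas the sgPpia#4.1 samples overlapped both other groups across lines.

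Set against sgBgal in the same line, sgPpia#3.2 left 35.9% ± 9.05 (SD, n = 3) of the Ppia level in Control cells and 45.7% ± 3.62 in Restored cells. The exon 4 guide left 65.8% ± 2.61 in Control and 74.3% ± 8.67 in Restored cells. All 12 guide samples were thus below the sgBgal sample of their own line and state. Transcript levels do not measure edits that leave the transcript in place, and the protein was not measured in these files.

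**Figure D2:**
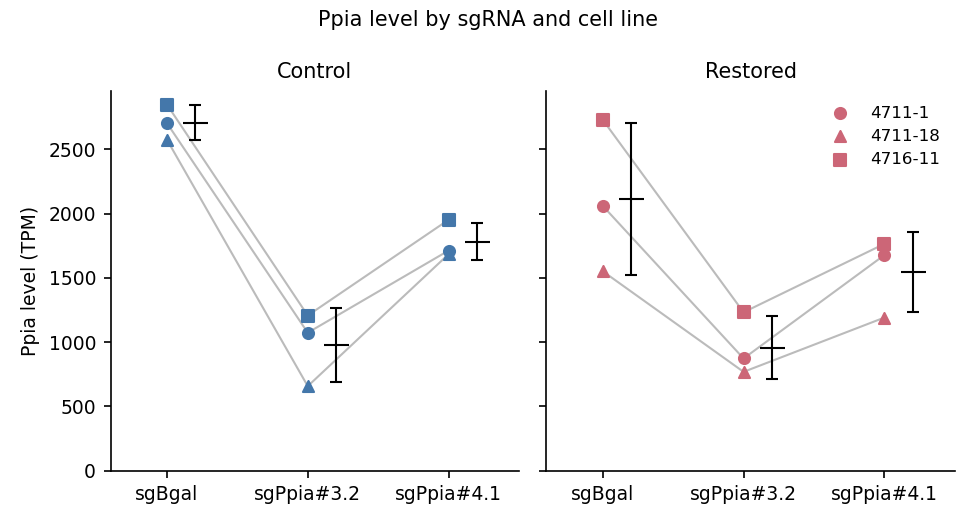
Ppia level in TPM (linear axis from 0) in each of the 18 samples by guide and state, with points shaped by cell line, grey lines joining the samples of a line, and the mean ± SD of 3 samples beside them. In Control cells the means are 2709 TPM with sgBgal, 979 for the exon 3 guide and 1783 for the exon 4 guide.

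Whether these differences passed a test over the whole table depended on how line differences were treated. In the model without cell line (limma on log2(TPM + 1), Benjamini-Hochberg adjustment over 12828 genes), 0 genes passed an adjusted p of 0.05 in any guide comparison, and 311 genes had an unadjusted p under 0.05 for sgPpia#3.2 in Control cells. The log2 difference of Ppia there was -1.51 with a standard error of 0.26 and an adjusted p of 0.47. With cell line as a replicate block the same difference had a standard error of 0.15 and limma gave an adjusted p of 0.0015. In Restored cells Ppia differed by -1.13 with sgPpia#3.2, with an adjusted p of 1 without the block and 0.043 with it. Ppia was 1 of 2 genes called with the block in Control cells (0.0156% of those tested), beside Muc1 at -1.08, and the only gene called in Restored cells (0.00780%). With sgPpia#4.1 the differences were -0.61 in Control and -0.44 in Restored cells, and the adjusted p with the block was 1 and 0.97.

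The calls for sgPpia#3.2 were lost when any of the 3 lines was left out. Leaving out a line in turn, with the block, gave log2 differences of -1.65 to -1.28 in Control cells and an adjusted p of 0.16 to 0.25, and in Restored cells an adjusted p of 0.29 to 0.80. Without the 4711-18 sgPpia#3.2 Control library alone the difference was -1.37 with an adjusted p of 0.012. In Restored cells the call was also lost after rescaling of the samples, at -1.03 with an adjusted p of 0.28. For a single value, the exact two-sided permutation test of 3 against 3 samples gave p = 0.1 for both guides in Control cells and for sgPpia#3.2 in Restored cells, the smallest p it allows, and 0.3 for sgPpia#4.1 in Restored cells. Ppia was lower with sgPpia#3.2 than with sgPpia#4.1 by 0.91 on the log2 scale in Control cells (95% interval of the difference with the block, -1.23 to -0.59) and by 0.70 in Restored cells (-1.02 to -0.37). The adjusted p with the block was 0.45 and 1, so this difference did not pass over the whole table. Both guides are compared with the same sgBgal samples.

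Ppia has many near copies in the mouse genome, which can share its reads. In GENCODE M21, 40 other genes, most of them processed pseudogenes, had a transcript that aligned to a Ppia transcript over at least 200 bases at 90% identity or more. 2 of them were in the table, E030024N20Rik and Gclm, and their summed level was at most 19.4% of that of Ppia. Gclm encodes a subunit of glutamate-cysteine ligase and has reads of its own, and the match is to an annotated processed transcript of that gene. How reads shared between copies were counted is not given in the sources used here, so the level left under the guides is uncertain to that extent.

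No rise or fall of the other 9 members passed the test with a Ppia guide. In limma's test 0 of 9 passed in each of the 4 guide comparisons, with or without the block. At an unadjusted p under 0.05 there were 0 of 9 without the block, beside 2.42% and 0.210% of all genes with sgPpia#3.2 and sgPpia#4.1 in Control cells and 1.20% and 0.530% in Restored cells. With the block there was 1 of 9, Ppie with sgPpia#3.2 in Control cells, where 12.7% of all genes were under 0.05, so that 1 gene is no more than the background share. The other 3 comparisons had 0 of 9, beside 1.26% with sgPpia#4.1 in Control cells and 8.64% and 3.31% with the 2 guides in Restored cells. In lines 4711-1, 4711-18 and 4716-11, Ppie was at 63.6, 67.0 and 96.2 TPM with sgBgal and at 84.2, 93.1 and 90.5 TPM with sgPpia#3.2. The level was higher with the guide in the first pair of lines and lower in 4716-11, and the groups overlapped. The log2 difference was 0.26 (95% interval with the block, 0.02 to 0.50, adjusted p = 0.36).

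The intervals show how large a rise the data leave possible for 1 gene at a time. The limits are not adjusted for taking the highest of 9 genes, and they are for TPM without rescaling. With the block, the highest upper 95% limit among the 9 genes was 0.50 on the log2 scale for sgPpia#3.2 and 0.49 for sgPpia#4.1 in Control cells, or 1.41-fold and 1.40-fold. In Restored cells the limits were 0.54 and 0.52, or 1.45-fold and 1.44-fold. Without the block they lay between 0.61 and 0.85, or 1.53-fold and 1.80-fold. The median log2 difference of the 9 was -0.12 and -0.06 in Control cells and 0.04 and -0.02 in Restored cells for sgPpia#3.2 and sgPpia#4.1. Over all genes tested the medians were -0.08, -0.04, -0.09 and -0.07, in the same order.

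The summed level of the 9 genes was 929 ± 111 TPM for sgBgal, 884 ± 73.1 for sgPpia#3.2 and 896 ± 127 for sgPpia#4.1 in Control cells (SD, n = 3 each). In Restored cells it was 731 ± 54.3, 737 ± 71.6 and 726 ± 65.2 TPM. The sums of the 3 guides thus overlapped within each state, while Ppia's share of the 10 genes was 74.5%, 51.8% and 66.6% for sgBgal, sgPpia#3.2 and sgPpia#4.1 in Control cells. In Restored cells its share was 73.6%, 56.1% and 67.6%.

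**Figure D3:**
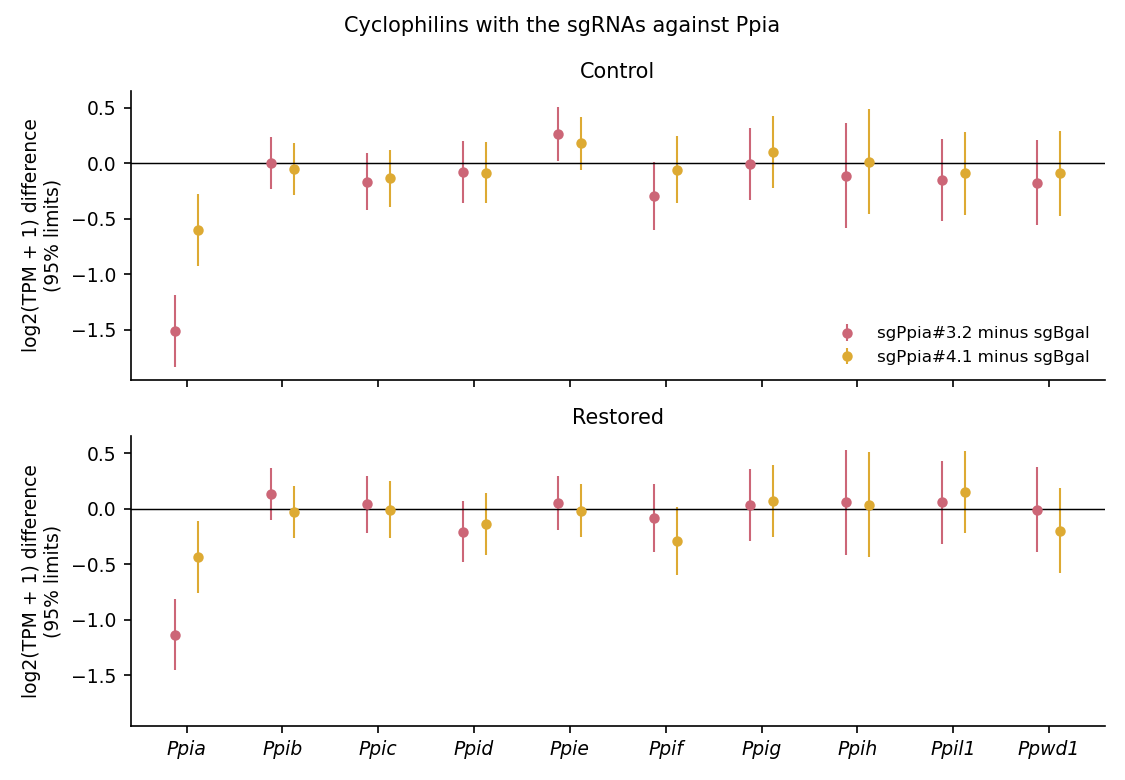
Log2 difference of each member with a Ppia guide against sgBgal, on log2(TPM + 1), for both guides in Control and Restored cells, with 95% intervals from the fit with cell line as a block. Ppia lies at -1.51, -0.61, -1.13 and -0.44, and each of the other 9 genes lies between -0.30 and 0.26.

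Ppic and Ppih fell with p53 restoration. Of the 10 members, limma without the block called 2, 1 and 2 lower in the order sgBgal, sgPpia#3.2 and sgPpia#4.1, and 0 higher. Over all genes tested, 13.8%, 10% and 10.3% were called, with 3.96%, 2.39% and 3.14% lower and 9.86%, 7.62% and 7.16% higher. With a log2 change of at least 1 required as well, 0 members were called, beside 7.64%, 5.75% and 6.09% of all genes. With the block, 4, 3 and 3 members were called lower and 0 higher, beside 42.1%, 34.1% and 35.1% of all genes called and 12%, 8.86% and 10.8% lower. The median log2 change of the 10 was -0.22, -0.12 and -0.24 with sgBgal, sgPpia#3.2 and sgPpia#4.1, whereas the median of all genes tested was 0.19, 0.17 and 0.15. After median-of-ratios rescaling the median of all genes with sgBgal was 0.00 and that of the members -0.44. On the rescaled values 843 genes were called higher and 822 lower with sgBgal, in place of 1265 and 508. In bulk RNA, fewer cells of a kind and less RNA per cell cannot be told apart.

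Ppic, which folds proteins of the secretory pathway, fell in each line. In lines 4711-1, 4711-18 and 4716-11 it was at 149, 167 and 187 TPM in sgBgal Control cells and at 71.9, 90.8 and 90.9 TPM after restoration. With sgPpia#3.2 it went from 122, 132 and 204 TPM to 71.4, 89.5 and 101 TPM. With sgPpia#4.1 it went from 123, 155 and 185 TPM to 64.0, 94.1 and 96.9 TPM. The 9 Control samples all lay above the 9 Restored samples. The level after restoration was 50.4% ± 3.40, 58.6% ± 9.03 and 55.1% ± 4.96 of that of the same line's Control sample for the 3 guides in that order (SD, n = 3 lines each). The log2 changes were -0.98, -0.78 and -0.86, each with a standard error of 0.23, and limma's adjusted p was 0.013, 0.049 and 0.031. With the block the adjusted p was 4.9e-05, 0.00037 and 0.00017. The sgPpia#3.2 call was close to the threshold: without the 4711-18 sgPpia#3.2 Control library it had an adjusted p of 0.059 without the block and 0.00023 with it. When any line was left out, the adjusted p for the 3 guides was 0.052 to 0.27 without the block and 0.0014 to 0.041 with it.

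Ppih, a component of the U4/U6 particle of the spliceosome, also fell. With sgBgal it was at 28.8, 35.0 and 41.5 TPM in Control and 19.1, 13.9 and 18.5 TPM in Restored cells of the 3 lines in the same order. With sgPpia#3.2 the levels were 40.2, 20.9 and 38.8 TPM and then 19.0, 14.9 and 19.8 TPM. With sgPpia#4.1 they were 25.7, 43.0 and 38.6 TPM and then 17.9, 15.5 and 19.2 TPM. Here too no Restored sample reached a Control sample, although the lowest Control sample, the 4711-18 sgPpia#3.2 library, was at 20.9 TPM against 19.8 TPM in the highest Restored sample. The log2 changes were -0.99, -0.81 and -0.96, each with a standard error of 0.26, and limma's adjusted p was 0.019, 0.058 and 0.027 without the block and 0.0033, 0.012 and 0.0047 with it. Without that library the sgPpia#3.2 change was -1.11 with an adjusted p of 0.0097, and -1.07 with 0.0028 with the block. With the block, leaving out line 4716-11 gave an adjusted p of 0.089, 0.19 and 0.10, and leaving out 4711-1 gave 0.0505 with sgPpia#3.2. Without the block, leaving out any line gave 0.060 to 0.37, except 0.039 with sgPpia#3.2 without 4711-18.

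Ppic and Ppih were the 2 members whose 9 Restored samples all lay below the 9 Control samples, and no member lay wholly above. Among all genes tested, 3.06% lay wholly below and 8.12% wholly above. Proliferation genes were counted beside these falls. Of 10 such genes, 5, 4 and 5 were called lower for the 3 guides and 0 higher in the fit without the block, beside 3.96%, 2.39% and 3.14% of all genes lower. With the block 5 were called lower with each guide and 1, Mcm2 with sgPpia#3.2, higher. In that fit 12%, 8.86% and 10.8% of all genes were lower for the 3 guides, and 25.3% were higher with sgPpia#3.2. Above 0 were 2, 5 and 3 of the 10 differences. The genes whose states did not overlap are given first. Ccna2 was at 44.1 to 150 TPM in Control and 4.31 to 20.1 TPM in Restored samples, Top2a at 67.9 to 197 and 9.86 to 42.4 TPM, Ccnb1 at 87.9 to 271 and 10.2 to 52.1 TPM, and Cdk1 at 41.9 to 89.9 and 10.7 to 34.1 TPM. These 4 genes of the cell cycle were lower in every Restored sample than in any Control sample. The others overlapped. Mki67 was at 23.0 to 99.6 TPM in Control and 3.16 to 28.2 TPM in Restored samples, and Mcm5 at 71.4 to 171 and 66.5 to 156 TPM. Tyms was at 19.9 to 60.4 and 26.9 to 57.3 TPM, and Mcm2 at 150 to 243 and 191 to 309 TPM. Rrm2 was at 61.5 to 795 and 124 to 1000 TPM, and Pcna at 738 to 2296 and 916 to 3083 TPM. The sum of the 10, in which Pcna had 738 to 3083 TPM, overlapped at 1306 to 3797 TPM in Control and 1365 to 4239 TPM in Restored samples. The part of proliferation in the falls of Ppic and Ppih was not tested.

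**Figure D4:**
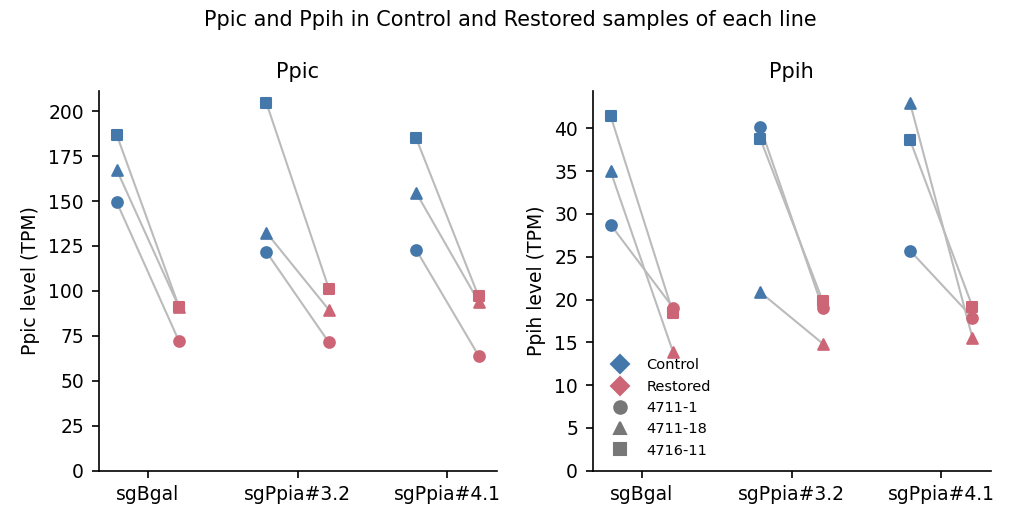
Ppic and Ppih in TPM (linear axes from 0) in Control and Restored samples, by guide, with a line joining the samples of 1 cell line. All 18 joined pairs go down, Ppic from 122 to 204 TPM in Control to 64.0 to 101 TPM in Restored samples, and Ppih from 20.9 to 43.0 to 13.9 to 19.8 TPM.

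The promoters of Ppih, which fell, and of Ppif, with a log2 difference of 0.00 with sgBgal, are shown because their genes differ in response. RefSeq promoters on GRCm38.p6 were matched for 7 of the 10 genes, and Ppic, Ppid and Ppie are named only. Each line gives the 250 bases before the RefSeq start, 5′ to 3′ on the gene's strand, with capitals marking matches to the motifs named after them. RefSeq and GENCODE place the starts differently, and the last bases of both stretches lie inside the GENCODE gene.
Ppih (chr4:119320524-119320773, minus strand): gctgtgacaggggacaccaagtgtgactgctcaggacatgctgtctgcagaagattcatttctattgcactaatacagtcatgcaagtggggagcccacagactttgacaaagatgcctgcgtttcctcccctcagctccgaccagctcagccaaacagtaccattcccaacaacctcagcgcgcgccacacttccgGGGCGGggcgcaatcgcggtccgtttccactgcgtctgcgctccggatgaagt
Ppif (chr14:25693920-25694169, plus strand): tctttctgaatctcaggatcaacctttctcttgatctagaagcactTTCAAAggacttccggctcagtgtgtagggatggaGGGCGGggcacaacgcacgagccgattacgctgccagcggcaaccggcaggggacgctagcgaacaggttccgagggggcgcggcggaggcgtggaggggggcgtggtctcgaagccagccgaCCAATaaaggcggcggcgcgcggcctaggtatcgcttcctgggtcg

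The letters searched on both strands were the CHR element (TTTGAA or TTCGAA), the CCAAT box (CCAAT), the GC box (GGGCGG), the TATA box (TATAAA) and an E2F site (TTTCCCGC, TTTGGCGC, TTTCGCGC or TTTGCCGC). They were found in 17.1%, 33.8%, 32.7%, 12.4% and 1.86% of 32851 promoters of the same length. Ppih held 1 GC box, 53 bases before the start, and none of the other letters. Ppif held a CHR match at 204, a GC box at 169 and a CCAAT box at 46 bases before the start. Of the other 5 promoters, that of Ppil1 held the 1 E2F match and that of Ppig a CHR match. A match is a run of letters, not a bound site, and no match says only that these letters are not in this window.

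Ppia, Ppib and Ppie had smaller differences, and their calls depended on the block. Ppia was lower in each line with sgBgal after restoration, with a log2 difference of -0.39, but the 3 lines differed: the Restored level was 60.3% to 95.8% of the Control level of the same line. Limma's adjusted p was 0.34 without the block and 0.048 with it. With sgPpia#3.2 the change was -0.01 and with sgPpia#4.1 -0.22, with an adjusted p of 0.95 and 0.26 with the block. Ppib, the endoplasmic reticulum cyclophilin, was at 203, 171 and 202 TPM in sgBgal Control cells and 157, 134 and 177 TPM after restoration, lower in 3 of 3 lines. Its log2 change was -0.30 with an adjusted p of 0.19 without the block and 0.038 with it. The changes with sgPpia#3.2 and sgPpia#4.1 were -0.17 and -0.29, and the adjusted p with the block was 0.25 and 0.056.

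Ppie, which carries an RNA recognition motif and joins the spliceosome with Aqr, Xab2 and Isy1, was called with the Ppia guides in the blocked fit and not with sgBgal. With sgBgal it was at 63.7, 67.9 and 66.5 TPM after restoration, a log2 change of -0.17 with an adjusted p of 0.24 with the block. With sgPpia#3.2 it was at 62.9, 66.0 and 77.6 TPM after restoration and with sgPpia#4.1 at 60.7, 62.9 and 72.8 TPM, below the Control sample of the same line in all 6 pairs. The log2 changes were -0.37 and -0.36, with an adjusted p of 0.17 and 0.18 without the block and 0.020 and 0.023 with it. The blocked calls of Ppia, Ppib and Ppie were each lost when any line was left out (adjusted p = 0.085 to 0.23), and that of Ppie with sgPpia#3.2 also without the 4711-18 Control library (adjusted p = 0.070). A call with 1 guide and not with another is not a difference between them: the interaction of guide and restoration is given below.

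The remaining 5 members did not pass in any guide with or without the block. Ppid, the Hsp90 co-chaperone, had log2 differences of -0.14, -0.26 and -0.18 with sgBgal, sgPpia#3.2 and sgPpia#4.1, and Ppil1 of -0.28, -0.07 and -0.04. Ppwd1, a nuclear cyclophilin with WD repeats, had differences of -0.14, 0.03 and -0.24. Ppig, which carries a domain rich in arginine and serine, had differences of 0.07, 0.11 and 0.04. Ppif, the mitochondrial member linked to necrosis, was at 15.9, 26.5 and 12.5 TPM in sgBgal Control cells and at 13.9, 27.0 and 13.9 TPM after restoration. Its 95% interval with the block was -0.31 to 0.30 with sgBgal, and its log2 differences with the Ppia guides were 0.21 and -0.23. After rescaling together with the block, 5 members were called lower with sgBgal (Ppia, Ppib, Ppic, Ppie and Ppih), 5 with sgPpia#3.2 (Ppib, Ppic, Ppid, Ppie and Ppih) and 4 with sgPpia#4.1 (Ppib, Ppic, Ppie and Ppih), beside 19.4%, 16% and 16.7% of all genes called lower in that fit. Under rescaling the differences of Ppig turned negative, at -0.14, -0.09 and -0.14, as did that of Ppwd1 with sgPpia#3.2, at -0.16.

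**Figure D5:**
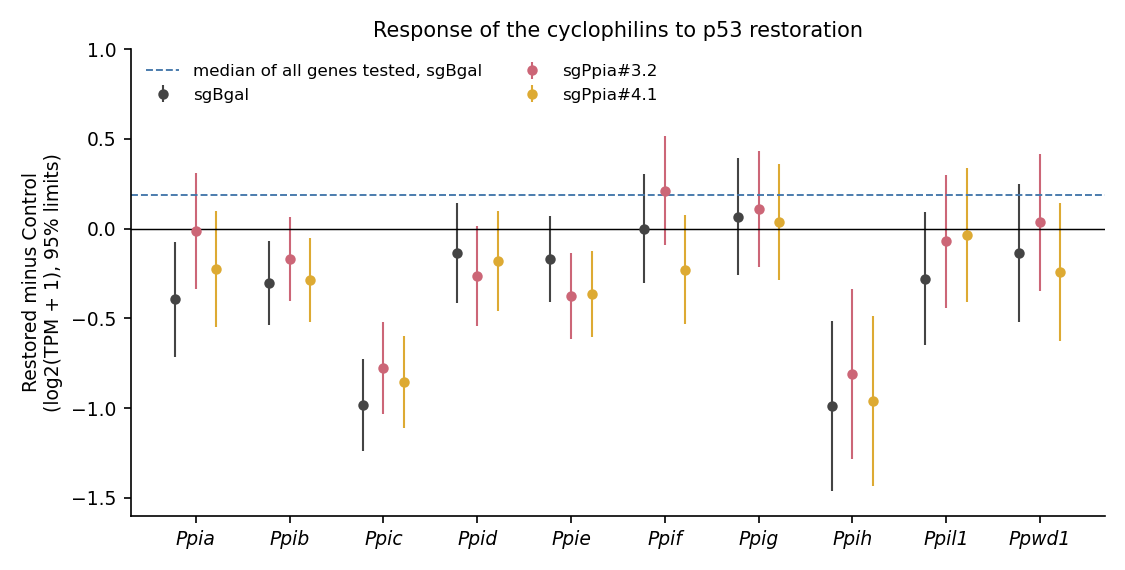
Log2 change of each member with p53 restoration, on log2(TPM + 1), for the 3 guides, with 95% intervals from the fit with cell line as a block and the median of all genes tested with sgBgal, 0.19, as a dashed line. Ppic and Ppih lie between -0.99 and -0.78, below every other member.

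The responses were not shown to differ between guides. For both Ppia guides, 0 of 10 members and 0 of all genes tested (0%) passed limma's test of the interaction of guide and restoration, with or without the block. For Ppia with sgPpia#3.2 the interaction was 0.38 on the log2 scale (95% interval with the block, -0.07 to 0.84, adjusted p = 1). It rested on line 4711-18: without that line it was 0.09 (-0.35 to 0.53), and without the Control library that stood apart 0.24 (-0.20 to 0.68), both with the block. For Ppie the interaction was -0.21 and -0.19 for the 2 guides, and for Ppic and Ppih it was between 0.03 and 0.21. These interactions share the sgBgal samples.

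In a model of condition and line, 7 of 10 members passed limma's F test for line, a share like that of all genes tested (72.7%), so the count is no result about the cyclophilins. Ppif was at 13.5 ± 1.60, 25.1 ± 3.64 and 12.1 ± 1.91 TPM in 4711-1, 4711-18 and 4716-11 (SD, n = 6 samples of each line, adjusted p = 3.9e-06), so the transcript of the mitochondrial cyclophilin was highest in 4711-18. Ppid was also highest in 4711-18, at 130 ± 11.5, 182 ± 30.3 and 122 ± 10.5 TPM (adjusted p = 0.00026). Ppic, Ppil1 and Ppie were highest in 4716-11 and lowest in 4711-1. Their means were 100, 121 and 144 TPM for Ppic (adjusted p = 0.00047), 151, 176 and 226 TPM for Ppil1 (adjusted p = 0.0025), and 68.9, 73.0 and 82.9 TPM for Ppie (adjusted p = 0.024). Ppia (1683, 1405 and 1956 TPM, adjusted p = 0.0015) and Ppwd1 (21.3, 18.7 and 25.1 TPM, adjusted p = 0.025) were lowest in 4711-18. Ppib, Ppih and Ppig did not pass, with an adjusted p of 0.069, 0.16 and 0.33. In the 9 Control samples alone 3 of 10 passed, beside 36.5% of all genes. The 6 samples of a line are not independent cultures from separate tumours, so these p-values describe these 3 lines.

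The response to restoration was not shown to differ between lines for any member: 0 of 10 passed the test of line by restoration, beside 2.96% of all genes. 1 member, Ppil1, had an unadjusted p under 0.05 in limma's test (0.026), with an adjusted p of 0.21. In 4711-18 Ppil1 went from 236 to 140 TPM with sgBgal, from 163 to 141 with sgPpia#3.2 and from 220 to 159 TPM with sgPpia#4.1. In the other lines it was higher in some pairs and lower in others.

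Members also differed in which genes they followed across samples. The correlations are Pearson's r of log2(TPM + 1) over 18 samples, which share 3 lines and 6 conditions, and are descriptions. Ppic and Ppih correlated at 0.84 with each other, Ppid and Ppif at 0.84, Ppib and Ppih at 0.76, and Ppib and Ppig at -0.50. The genes most like Ppih were Mrto4 (r = 0.98), Lsm3 (0.96) and Fbl (0.96). Those most like Ppic were Chac2, Mad2l1 and Dhcr7, each at 0.95. Ppid was most like Wdr77 (0.96), Prpf3 (0.95) and Clca4a (0.95). Ppib was most like Miip (0.91), Sdhb (0.90) and Ddost (0.89), Ppie like Yif1b (0.92), Mrpl23 (0.89) and Endog (0.89), and Ppil1 like Dpy30 (0.93), Dctpp1 (0.93) and Rbbp7 (0.91). Ppwd1 was most like Magoh (0.91), Rpa2 (0.90) and Clspn (0.90). Ppia was most like Pole3 (0.84), Sltm (0.80) and Gnptab (0.80), and Ppig like Lncppara (0.78), Dnajc7 (0.77) and Zbtb22 (0.74). Ppif was most like Pde9a (0.95), Sema4a (0.94) and Tmem139 (0.94). With the line means removed, the values for Ppif fell to 0.54, 0.47 and 0.56, whereas that of Ppih with Mrto4 stayed at 0.98.

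Of other cyclophilin genes, Ppil2 rose with restoration with each guide, with and without the block. Of 7 further family members, 6 were tested, and Ppil6 was at 0 to 0.526 TPM. Without the block, limma called Ppil2, a cyclophilin with a U-box, higher with each guide, with log2 changes of 0.56, 0.60 and 0.54 (adjusted p = 0.011, 0.0092 and 0.016 for sgBgal, sgPpia#3.2 and sgPpia#4.1). Its level was 41.6 to 48.4 TPM in Control and 59.8 to 77.1 TPM in Restored samples, with no overlap. With the block 4, 3 and 4 of 6 were called higher and 0 lower, beside 30.2%, 25.3% and 24.3% of all genes higher. In that fit Ppil3, a spliceosomal cyclophilin, rose by 0.82, 0.78 and 0.77 on the log2 scale, and Nktr, a large nuclear cyclophilin, by 0.75, 0.76 and 0.49. Ranbp2, the cyclophilin of the nuclear pore, rose by 0.45 with sgBgal and 0.43 with sgPpia#4.1. The median change of the 6 was 0.51, 0.49 and 0.46, and all 6 were above 0 with each guide, also after rescaling with sgBgal, when their median was 0.29. The sum of the 7 genes was 136 to 182 TPM in Control and 197 to 275 TPM in Restored samples, small beside the 10 members at 1486 to 3824 TPM in Control samples. With the Ppia guides, limma called 0 of the 6, and 0 had an unadjusted p under 0.05, with or without the block. Of all genes, at most 0.0156% were called in these comparisons. An unadjusted p under 0.05 was found for 0.210% to 2.42% of all genes without the block and 1.26% to 12.7% with it.

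Among 14 known partners of cyclophilins, limma without the block called 2, 0 and 2 lower with restoration and 0 higher with sgBgal, sgPpia#3.2 and sgPpia#4.1, beside the 3.96%, 2.39% and 3.14% of all genes lower. The 2 were Hsp90ab1, the chaperone bound by the Ppid product, at -0.45 and -0.47 (adjusted p = 0.033 and 0.032), and Isy1, a splicing factor of the Ppie complex, at -0.62 and -0.63 (adjusted p = 0.034 and 0.039). The spliceosomal partners of Ppih, Prpf3 and Prpf4, did not pass, with log2 differences of -0.08 and -0.07 with sgBgal. Bsg, the cell surface receptor of extracellular cyclophilin A, had a difference of 0.45 with sgBgal (adjusted p = 0.39). With the block the counts were 2 higher and 2 lower for sgBgal, 3 and 3 for sgPpia#3.2, and 1 and 2 for sgPpia#4.1, beside 30.2%, 25.3% and 24.3% of all genes higher and 12%, 8.86% and 10.8% lower. Of 16 other prolyl isomerases tested, 2, 0 and 2 were called lower and 0 higher without the block, beside the same 3.96%, 2.39% and 3.14%, with a median difference of -0.27, -0.18 and -0.24. With the block 6, 5 and 5 were called lower and 2, 0 and 1 higher, beside the shares of all genes given above for that fit.

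Reads of other members can also be shared. Ppih had 8 near copies by the same criterion, of which 1, the antisense gene Gm10069, was in the table at 0.718 to 1.95 TPM. Ppid had 6, and Ppib, Ppig and Ppwd1 had 1 each. That of Ppwd1 is Cenpk, on the opposite strand, at 5.11 to 17.9 TPM, and the match is 212 bases of 1 transcript, so with counting that ignores strand reads within that stretch could not be told apart. Ppic, Ppie, Ppif and Ppil1 had none.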

How the data were processed

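RNA of 18 cell samples (RNeasy) was sequenced by a service provider. The authors deposited 1 table of TPM values, in which each of the 18 columns sums to 1000000 over 25239 genes; reads behind a value are not given, so no counting interval is possible. The submitters' processing notes name bcl2fastq 2.17, HISAT2 and the builds mm10 and GRCm39, while the study names a choice of aligners; the counter, the handling of shared reads and the use of strand are not given in the sources used here. Shared reads and the fixed total can move a level.

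Genes at 1 TPM or more in 3 samples or more were tested with limma 3.58.1 (R 4.3.3) on log2(TPM + 1) with the 6 conditions as groups, and p-values were adjusted by Benjamini-Hochberg over 12828 genes. A call is an adjusted p under 0.05. Fold changes on this scale understate low genes. Replicate numbers are the 3 cell lines. Deviations from the condition means correlated at 0.73 on average between samples of 1 line (45 pairs, lowest 0.58), so the lines pair the samples. The value between lines, -0.36 (90 pairs), follows largely from subtracting the condition means and adds nothing to this. The fit with cell line as block is given beside a result whose call it changes. The closest 2 samples correlated at 0.995, and none held the same values. Samples are single cultures of each line. Without the block, p-values set a difference against the spread among the 3 lines within conditions. With the block they set it against the spread left once the mean differences between lines are removed. In both fits limma pools the spread over the 6 conditions and moderates it over all genes tested. Alternatives were a pseudocount of 0.1, no filter, a minimum of 5 TPM, median-of-ratios rescaling, the compared groups alone, trended and robust variances, a fold minimum, and leaving out each line. Those that combine the block with rescaling or with a left-out line or library, the test of line by restoration and the count of samples that do not overlap were added after the data were seen. Near copies were found with BLAST+ 2.17.0 among GENCODE M21 transcripts, and promoters are those of RefSeq (GRCm38.p6). The fit was tested on simulated data.

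The text names all 10 members, the other cyclophilins and partners that passed or by their range, and for each member the 3 genes with the highest r. The members and lists were chosen with earlier results of these data known.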

Additional observations from a re-analysis of the deposited data

How the results depend on the processing

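Among the 10 members, no difference with restoration or a Ppia guide that was called with or without the block changed direction under any alternative. Of the 30 differences with restoration, 9 that were called in neither fit changed sign under at least 1 alternative: 4 by rescaling (Ppig with each guide and Ppwd1 with sgPpia#3.2) and 8 by leaving out a line or library. Each of the 9 was within 0.17 of 0 on the log2 scale, and Ppie with sgBgal, called lower with block and rescaling, was at 0.01 without 4716-11 and without rescaling. Of 234 values of single members under alternatives, 193 kept their side of the threshold, 18 passed it newly and 23 no longer passed. Members called with restoration numbered 2, 1 and 2 with sgBgal, sgPpia#3.2 and sgPpia#4.1. With cell line as replicate block they numbered 4, 3 and 3, and with block and rescaling 5, 5 and 4. Leaving out 1 line or library gave 0 to 0, 0 to 1 and 0 to 0 without the block, and 1 to 2 for each guide with it; without 4716-11 and with the block 1 was called with each guide. With the compared groups alone 0 were called with sgPpia#3.2 and 0 with sgPpia#4.1. A pseudocount of 0.1 or no filter gave 0 with sgPpia#3.2. Requiring a log2 change of at least 1 gave 0 with each guide. For sgPpia#3.2 against sgBgal 0 members were called in either state, and with the replicate block 1 in Control cells, 1 in Restored cells, 1 in Control cells after rescaling as well, and 1 in Control cells without the 4711-18 library. The line test called 7 members, and 3 in Control samples alone. Over all genes 1773, 1284 and 1322 were called with restoration, and 5407, 4378 and 4505 with the block. Of the genes called without the block, 1265, 978 and 919 were higher and 508, 306 and 403 lower. After rescaling 843, 727 and 695 were higher and 822, 559 and 615 lower. Over all 12828 genes, leaving out 1 line or library gave 483 to 972, 230 to 1223 and 286 to 819 calls without the block. With the block it gave 2319 to 4156, 1227 to 4151 and 1381 to 3856 calls. The compared groups alone gave 385 calls with sgPpia#3.2 and 421 with sgPpia#4.1. Among the members, the block changed no other call named in the text. The causes of these changes were not tested, except that leaving out a line leaves fewer samples. Read depth is unknown, so its limit on the low members Ppif, Ppih and Ppwd1 cannot be given, and 3 samples in a group set the precision throughout.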
